A study of Mus musculus with 16 samples.

Results

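The cells described here carried the invariant alpha chain of natural killer T (NKT) cells, a T cell receptor (TCR) alpha chain in which the segment TRAV11 is joined to TRAJ18. They were found among spleen CD4+ T cells of mice, sorted for the high CD44 (CD44high) that marks antigen-experienced cells. A cell counted as a member if any of its TRA contigs (assembled alpha chain sequences) was labelled TRAV11 or TRAV11D together with TRAJ18, whether or not a beta chain (TRB) was found beside it. This rule gave 275 of 74368 cells, or 275 of the 46038 cells with a TRA contig. The rule used only the alpha chain, so beta chain sequences and shares by library were independent of it. A cell with 2 alphas has more than 1 chance to meet the rule, so the number of alphas was not. A doublet (2 cells under 1 barcode) can hold more alphas and more betas, so the number of betas was not fully independent either.

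Invariant NKT cells recognise glycolipids bound to CD1d rather than peptides on MHC molecules, and they answer within hours with cytokines. In the mouse their alpha chain is nearly the same in every cell, while the beta chain keeps a variable CDR3, the loop formed where the segments join, on a small set of V segments, the former Vβ8, Vβ7 and Vβ2 families. Many of them carry CD4 and a memory-like CD44high surface, which places them inside the sort gate, and in some strains many carry NK1.1.

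Every mouse received an antibody that depletes NK1.1-bearing cells (50 µg, days -2 and 5) and a graft of Vk12653 myeloma cells on day 0, so both the controls and the treated mice had been depleted. What that depletion did to the members was not tested. Agonistic anti-4-1BB or control IgG (20 µg) followed on days 10, 13 and 16, and spleens were taken on day 18. Wild-type (WT) mice were Eomes-IRES-GFP in both experiments. Mice labelled knockout (KO) for the transcription factor Eomes were Eomesfl/fl-CD4Cre in experiment 1, with Cre driven by the CD4 promoter. In experiment 2 they were Eomesfl/fl-ERT2CD4Cre, with a tamoxifen-dependent Cre, and tamoxifen was given to all mice, the WT included. Differences between the experiments and between the kinds of knockout therefore cannot be told apart. The 4 groups (WT or KO, IgG or anti-4-1BB) had 2 libraries each, 1 per experiment. The labels do not say how many mice went into a library, so p-values measure the spread between libraries, which edgeR pooled over segments or pairs.

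The 8 TCR libraries held 4637 to 14657 cells and 80551 to 445027 unique molecular identifiers (UMIs, counts of captured molecules). Between 53.2% and 74.1% of a library's cells had a TRA contig. As for the label, the receptor sequences below hold the known invariant join. In all libraries 0 contigs were labelled TRAV11D, and 0 came from gamma, delta or immunoglobulin chains. TRAV11 and TRAV11D are near-identical copies, so the contigs cannot be assigned to one of them beyond the label. CD1d binding and gene expression of these cells were not analysed here. Of 71086 distinct barcodes, 3198 occurred in 2 or more libraries, 35 to 245 per pair of libraries, and 0 of them shared a chain. Among the members, 17 had a barcode that another library also used.

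TRAV11 lies on chromosome 14 at 53519303 to 53519859 and TRAJ18 at 54200777 to 54200842 in the RefSeq annotation of GRCm38.p6, as a V and a J segment of the alpha locus. The nucleotide sequences of the CDR3 alpha found in 5 or more members are shown, because they carry what made the alpha chain invariant. They run 5′ to 3′, positions are counted from 1 at the 5′ end, and capitals mark bases 10 to 15, the codons 4 and 5 at the join.

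alpha 1: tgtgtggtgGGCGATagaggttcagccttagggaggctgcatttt
alpha 2: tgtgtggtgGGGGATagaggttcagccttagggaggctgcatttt
alpha 3: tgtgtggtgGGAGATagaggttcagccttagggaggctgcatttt
alpha 4: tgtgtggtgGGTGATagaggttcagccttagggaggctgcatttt
alpha 5: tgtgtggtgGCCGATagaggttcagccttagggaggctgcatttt
alpha 6: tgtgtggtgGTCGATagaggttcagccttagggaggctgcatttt

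The alpha chain was nearly constant. The commonest protein form, called canonical here, had 15 residues (45 bases) and was found in 246 of 275 members (89.5%) and in all 8 libraries. By library it made up 86.2% to 100% of the members. Alpha 1, 2, 3 and 4 encode this same protein and differ only at base 12, as C12G, C12A and C12T relative to alpha 1. They were found in 101, 74, 32 and 30 members, together 237, which is 96.3% of the members with the canonical form. All 4 bases thus occurred at this position, the last base of codon 4, where a change leaves the residue unaltered. Alpha 1 and 2 were found in each of the 8 libraries, and alpha 3 and 4 in 7 each.

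The other 29 members had 8 further protein forms. In 22 of them only residue 4 was changed, as in alpha 5 (G11C, 8 members in 5 libraries) and alpha 6 (G11T, 7 members in 3 libraries). All but 2 of the 275 chains had 15 residues. One of the remaining chains had 14 residues and the other 16. The last 9 residues were the same in all 275 chains, and the CDR1 and CDR2 nucleotides of the V segment were the same in 275 of 275. Chains with only 1 of the segments held these parts too. The same CDR1 and CDR2 were each in 88 of 89 TRAV11 chains with another J segment. The last 27 bases of alpha 1 were in 97.7% of TRAJ18 chains with another V segment.

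A nearly fixed length was seen with the pair of segments and with neither alone, while parts of the join also occurred with 1 segment alone. TRAV11 was joined to another J segment in 89 cells, and TRAJ18 to another V segment in 902 cells (904 chains). In 0 cells did TRAV11 and TRAJ18 occur on separate chains. Among the 89 TRAV11 chains there were 72 protein forms, the commonest in 6 chains, with 13.7 ± 1.16 residues (SD over chains). Among the 904 TRAJ18 chains there were 411 forms, the commonest in 35 chains, with 14.5 ± 1.01 residues. Of these chains, 13.5% and 36.2% had 15 residues, against 99.3% of the invariant chains. The first 11 bases of alpha 1 were also held by 66.3% of the other TRAV11 chains, and the last 30 bases by the majority of the other TRAJ18 chains. Bases 12 to 15 thus lay between the runs that most other chains of each segment held. They were not confined to the pair. The first 13 bases were in 30.3% of the other TRAV11 chains, and the last 33 bases in 18.4% of the other TRAJ18 chains. These are counts of chains with no test, since length and sequence come from the same contigs that chose the cells.

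**Figure D1:**
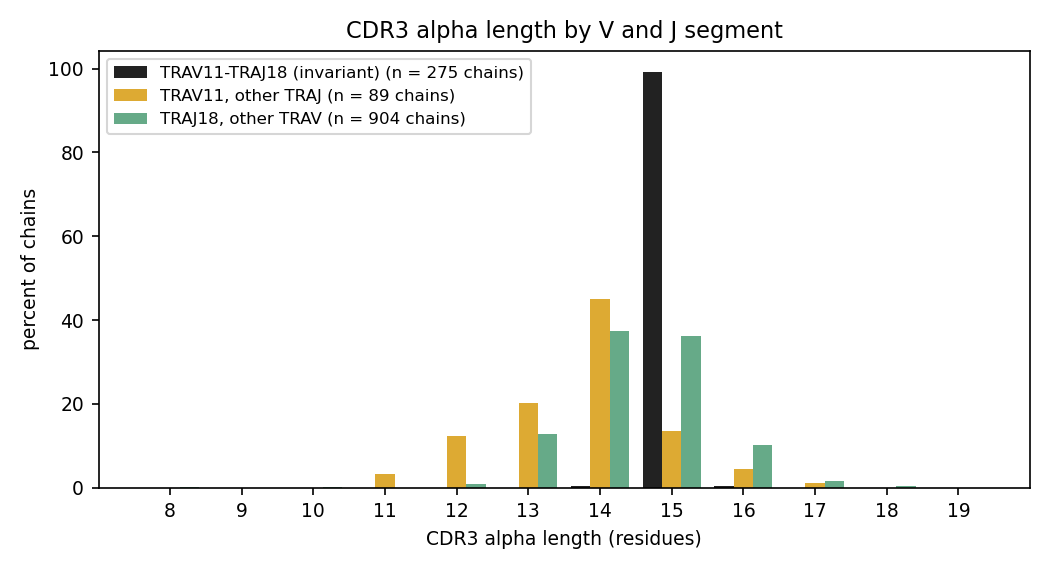
Percent of chains (y axis) by CDR3 alpha length in residues (x axis) for the 275 invariant chains, the 89 TRAV11 chains with another J segment and the 904 TRAJ18 chains with another V segment. The invariant chains form a single bar at 15 residues (99.3%), while both other sets spread over several lengths.

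TRAV11 found TRAJ18 as its partner in 275 of its 364 contigs (75.5%), with a range of 39.3% in WT with anti-4-1BB of experiment 1 to 93.2% in KO with IgG of experiment 2. The invariant chain made up 23.3% of the 1179 TRAJ18 contigs, from 4.85% to 42.6% by library in the same 2 libraries.

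Members were rarer with anti-4-1BB than with control IgG in both genotypes and both experiments. In experiment 1, there were 18 of 4964 cells with a TRA contig in WT with IgG (0.363%, 95% exact binomial interval 0.215% to 0.572%) and 11 of 10859 in WT with anti-4-1BB (0.101%, 0.0506% to 0.181%). KO mice of experiment 1 had 20 of 3344 with IgG (0.598%, 0.366% to 0.922%) and 9 of 3203 with anti-4-1BB (0.281%, 0.129% to 0.533%). The IgG share was 3.58 times the anti-4-1BB share in WT and 2.13 times in KO. In experiment 2, WT had 68 of 5294 with IgG (1.28%, 0.999% to 1.63%) and 10 of 5292 with anti-4-1BB (0.189%, 0.0907% to 0.347%). KO mice of experiment 2 had 123 of 7190 with IgG (1.71%, 1.42% to 2.04%) and 16 of 5892 with anti-4-1BB (0.272%, 0.155% to 0.441%). Here the IgG share was 6.80 times the anti-4-1BB share in WT and 6.30 times in KO. The 4 IgG libraries all lay above the 4 anti-4-1BB libraries, and the IgG libraries of experiment 2 stood above those of experiment 1. The intervals cover counting error only.

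Members averaged 0.989% ± 0.620 in the IgG libraries and 0.211% ± 0.0838 in the anti-4-1BB libraries (SD, n = 4 each). The difference was -0.778 percentage points, -0.289 in experiment 1 and -1.27 in experiment 2, and it was lower in 4 of 4 pairs of libraries. The two-sided exact permutation test over the 8 libraries gave p = 0.0286, the smallest that 4 against 4 allows, and an adjusted p of 0.171 over the 6 share comparisons made. When labels were exchanged only between libraries of the same experiment and genotype, as the batches in the labels pair them, the exact p was 0.125, the smallest that design allows. On the log2 scale the shares with anti-4-1BB were 4.25-fold lower. Whether the difference was larger in experiment 2 than in experiment 1 was not tested.

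Depth also differed between the treatments. The median TRA contig of a library rested on 6 to 8 UMIs with IgG and 8 to 10 with anti-4-1BB, higher in each of the 4 pairs. Total reads were higher with anti-4-1BB in experiment 1 (9923259 and 9978368 with IgG, 15045635 and 10606205 with anti-4-1BB, WT and KO) and lower in experiment 2 (11774934 and 12029353 against 9977138 and 8039901). Their part in the result was not tested. With contigs of at least 3 UMIs only, the difference was -0.735 percentage points. A share also falls when other cells in the gate become more numerous, and absolute cell numbers were not measured in these files.

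**Figure D2:**
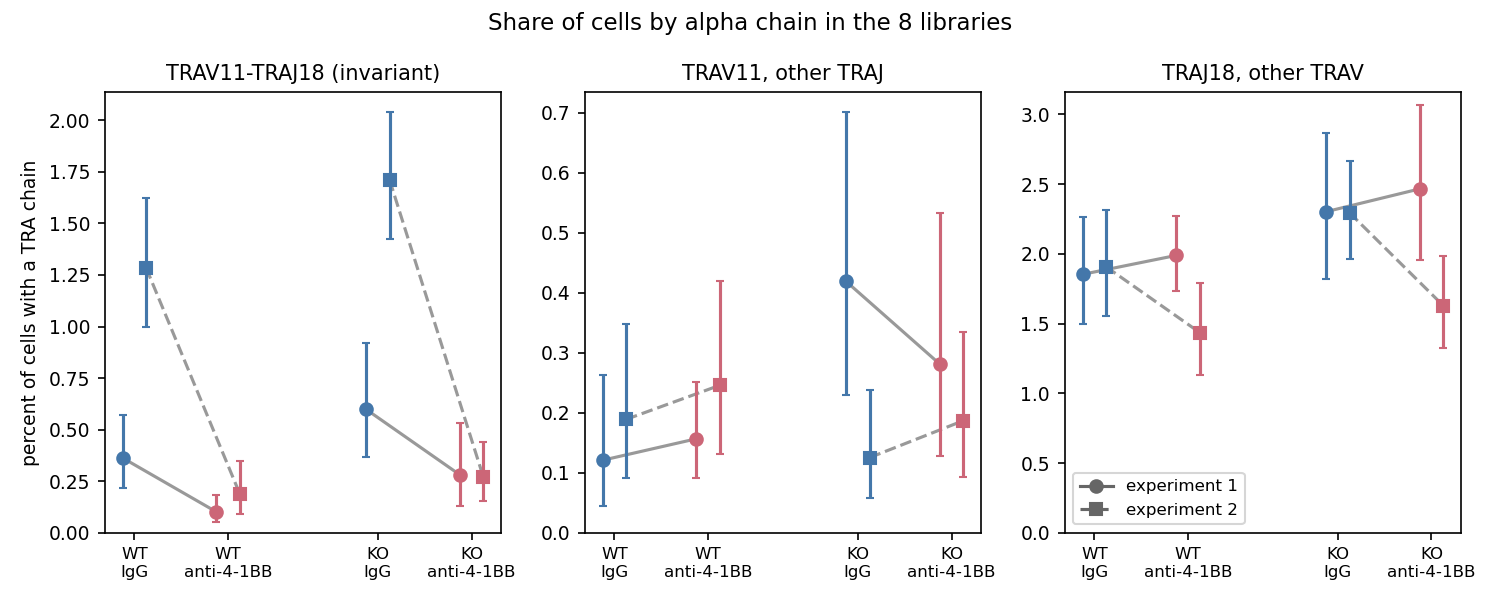
Percent of cells with a TRA contig (y axis, a different range in each panel) that carried TRAV11-TRAJ18, TRAV11 with another J segment, or TRAJ18 with another V segment, in the 8 libraries (x axis: group). Points are libraries (blue IgG, red anti-4-1BB; circles experiment 1, squares experiment 2), bars are 95% exact binomial intervals, and lines join libraries of the same experiment and genotype. All 4 lines fall in the first panel and only some do in the others.

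The chains that share only 1 of the 2 segments did not follow this pattern. TRAV11 with another J segment made up 0.121% to 0.419% of cells with IgG and 0.157% to 0.281% with anti-4-1BB, in 6 to 17 cells per library. The mean difference was 0.00407 percentage points (higher with anti-4-1BB in 3 of 4 pairs; exact permutation p = 1). TRAJ18 with another V segment made up 1.85% to 2.30% of cells with IgG and 1.44% to 2.47% with anti-4-1BB. The mean difference was -0.209 percentage points (exact permutation p = 0.457, adjusted 0.617), and it was 0.150 in experiment 1 and -0.569 in experiment 2. A p that misses the threshold does not show that these shares were equal.

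Among the 71 TRA V-J pairs tested, TRAV11/TRAJ18 was the only pair called between treatments in the main setting. A pair that was not called may still differ. For this comparison each paired clonotype, meaning all cells that share both chains within a library, was counted once, which removes the effect of clone size. The pair took 10, 16, 57 and 103 clonotypes in the IgG libraries (WT and KO of experiment 1, then of experiment 2), or 0.292%, 0.694%, 1.56% and 2.16% of their clonotypes. With anti-4-1BB it took 8, 9, 7 and 13, or 0.106%, 0.376%, 0.249% and 0.367%. These ranges overlap on this scale, because WT with IgG of experiment 1 lies below KO with anti-4-1BB of both experiments. edgeR's quasi-likelihood test gave a log2 difference of -2.25 ± 0.45 (SE) with a Benjamini-Hochberg adjusted p of 5.77e-05. It called 1 of 71 pairs tested (1.41%), with 5 at an unadjusted p under 0.05. A pair was tested if it had 10 or more clonotypes in at least 2 libraries. Every IgG library met this for TRAV11/TRAJ18, but with anti-4-1BB only KO of experiment 2 did. The pair thus entered the test through the group where it was high, so its place among the 71 is no independent support. The median difference over the 71 pairs was 0.06 on the log2 scale and the next lowest pair, TRAV5-4/TRAJ37, was at -1.35 (edgeR adjusted p = 0.512). The largest positive difference was 1.40 for TRAV13N-2/TRAJ12 (edgeR adjusted p = 0.236). TRAV7D-2/TRAJ18, the only other tested pair with either segment, had a log2 difference of 0.15 ± 0.53.

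This call depended on the setting. It was kept with the experiment as a block (-2.02, edgeR adjusted p = 7.64e-05). With no filter it was the 1 call among 2934 pairs. The call was lost with DESeq2 (-2.29, adjusted p = 0.0898), with cells counted in place of clonotypes (edgeR adjusted p = 0.207) and with an abundance trend in the spread (edgeR adjusted p = 0.238). It was also lost in edgeR without WT IgG of experiment 2 (-1.42, adjusted p = 0.399), WT anti-4-1BB of experiment 1 (0.295) or 2 (0.190), or KO IgG of experiment 2 (0.123).

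KO mice had a higher member share than WT mice in 4 of 4 pairs of libraries, by 0.231 percentage points on average (0.715% ± 0.681 against 0.484% ± 0.544, SD, n = 4 libraries each). The exact permutation p was 0.514 over the 8 libraries, where treatment adds to the spread, and 0.125 within pairs, the smallest possible. Without KO IgG of experiment 2 the difference was -0.101. In edgeR the pair TRAV11/TRAJ18 stood at 0.93 ± 0.45 on the log2 scale (adjusted p = 0.988). Of the 71 pairs 0 were called (0%), 2 had an unadjusted p under 0.05, and DESeq2 called 0 as well. TRAJ18 chains with another V segment were also higher in KO in 4 of 4 pairs, by 0.377 percentage points (exact permutation p = 0.114, adjusted 0.343).

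Beta chains beside the invariant alpha came mostly from 6 V labels known as its partners: TRBV13-1, TRBV13-2 and TRBV13-3 (the Vβ8 family), a label that joins TRBV12-2 and TRBV13-2, TRBV29 (Vβ7) and TRBV1 (Vβ2). All 109 member chains with the joined label carried the CDR1 of TRBV13-2 and 0 that of TRBV12-2, so it stands for Vβ8.2. TRBV13-2 lies on chromosome 6 at 41121396 to 41121832 and TRBV29 at 41271403 to 41271881 (RefSeq, GRCm38.p6). For each label the member chain with the most UMIs is shown, as an example of a partner with that label. Capitals mark the middle of the CDR3, between the start and the end that most chains of the same V or J segment hold.

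TRBV13-1, TRBJ2-7: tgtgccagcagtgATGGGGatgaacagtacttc
TRBV13-2, TRBJ1-4: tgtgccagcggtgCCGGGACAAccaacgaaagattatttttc
TRBV12-2+TRBV13-2, TRBJ2-4: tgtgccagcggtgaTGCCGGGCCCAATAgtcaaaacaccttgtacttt
TRBV13-3, TRBJ2-1: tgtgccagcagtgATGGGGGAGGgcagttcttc
TRBV29, TRBJ2-2: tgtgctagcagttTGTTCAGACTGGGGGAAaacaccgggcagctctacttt
TRBV1, TRBJ1-1: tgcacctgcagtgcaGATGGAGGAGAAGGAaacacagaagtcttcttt

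These 6 chains differ in the length of the middle, from 6 to 17 bases, and in total from 11 to 17 residues. Such variety contrasts with the 6 alpha sequences above, which are all of the same length and vary within codon 4.

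Of the 231 members with exactly 1 TRB contig, 203 (87.9%) had a listed partner label, against 35.6% of other cells with a TRA and 1 TRB. The share was 66.7% to 96.7% by library, above the other cells' 30.9% to 40.2% in each of the 8. The joined label was in 109 members (47.2%, 95% exact binomial interval 40.6% to 53.8%), TRBV29 in 45 (19.5%, 14.6% to 25.2%) and TRBV13-3 in 25 (10.8%, 7.13% to 15.6%). TRBV13-1 and TRBV1 were in 10 members each (4.33%), a lower share than the 6.41% and 7.26% of other cells. TRBV13-2 under its own label was in 4. The other 28 members had a V label outside the list.

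Across the whole table of beta segments, edgeR called 4 of 34 V and J segments higher (11.8%) and 12 lower (35.3%) in invariant than in other cells, counting each distinct beta chain once per library, with 18 at an unadjusted p under 0.05. With TMM factors the split was 1 higher and 20 lower, and with DESeq2 1 higher and 16 lower. The median log2 difference over the segments was -0.67 with totals, -1.55 with TMM and -0.96 with DESeq2. Of the 6 listed labels, 3 were called higher and 0 lower in the main setting, with a median of 0.30. TRBV1, TRBV13-1 and TRBV13-2 under its own label had negative values and were not called. The 16 segments called are a large part of the table, and a gain of a few labels lowers the percent of all others by construction.

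Among the segments called higher, TRBV29 had the largest log2 difference. It made up 18.2%, 25%, 37.5% and 11.1% of member chains in experiment 1 (WT control, WT treated, KO control, KO treated) and 21.3%, 14.3%, 19.2% and 0% in experiment 2. Among other cells it was between 1.67% and 2.18%. Members were thus higher in 7 of 8 libraries, and KO with anti-4-1BB of experiment 2, with 0 of 13 chains, was the exception. The log2 difference was 3.34 ± 0.31 (edgeR adjusted p = 4.58e-23), and it was called in each of the 15 alternatives, from 2.17 to 3.45.

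The joined label followed. It made up 45.5%, 0%, 43.8% and 22.2% of member chains in experiment 1, in the same order, and 45.9%, 42.9%, 53.8% and 61.5% in experiment 2, against 10.9% to 13.3% of other chains. It too was higher in 7 of 8 libraries. WT with anti-4-1BB of experiment 1 had 0 of 8 such chains. The log2 difference was 1.93 ± 0.18 (edgeR adjusted p = 1.47e-23). It was 0.59 with TMM factors (edgeR adjusted p = 0.0614) and 0.82 with DESeq2 (adjusted p = 0.0810), so the call was lost under both. The edgeR SE and p, here and for TRBV29, rest on a spread pooled over segments. They do not measure the spread of the single label between libraries.

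TRBV13-3 (10.9% of member chains, 6.49% of other chains) and TRBJ1-2 (10.0% and 5.03%) were also called higher. TRBV13-3 had a log2 difference of 0.84 ± 0.33 (edgeR adjusted p = 0.0238) but -0.28 with TMM factors. In edgeR its call was lost without WT IgG (adjusted p = 0.296) or KO anti-4-1BB (0.0759) of experiment 2. TRBJ1-2 had 0.96 ± 0.34 (edgeR adjusted p = 0.0129), with 0.52 under TMM factors and 0.45 under DESeq2, both not called. In edgeR its call was lost without WT IgG (adjusted p = 0.203) or KO IgG (0.0701) of experiment 2. The other listed labels did not pass the test, with log2 values of -0.73 ± 0.43 for TRBV1, -0.61 ± 0.44 for TRBV13-1 and -0.23 ± 0.72 for TRBV13-2 alone. Among the 15 alternatives, TRBV1 was called lower in 2 and TRBV13-1 in 1, with values down to -1.69 and -1.56.

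**Figure D3:**
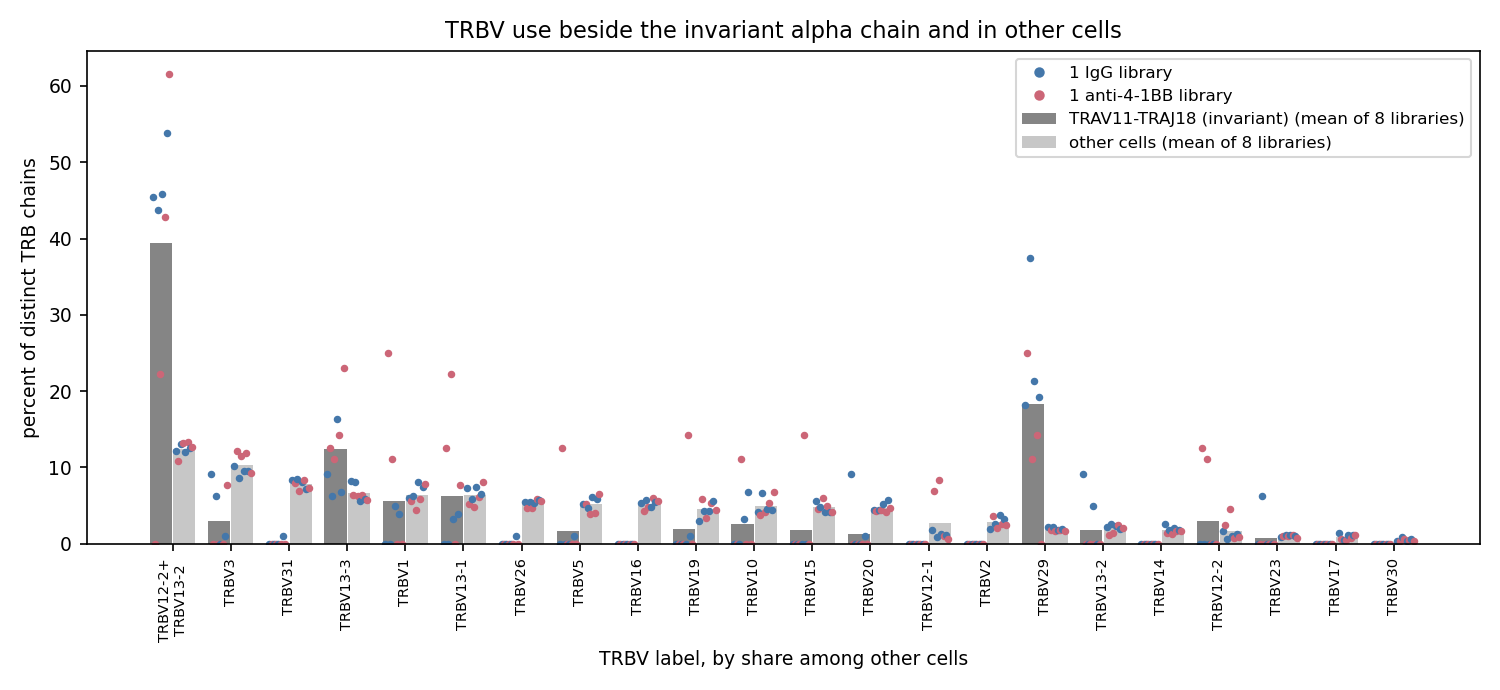
Percent of distinct TRB chains (y axis) by TRBV label (x axis) beside the invariant alpha (dark bars) and in other cells (light bars). Bars are means of the 8 libraries and points single libraries (blue IgG, red anti-4-1BB). The joined TRBV12-2 and TRBV13-2 label and TRBV29 stand above the other cells, and the labels TRBV16, TRBV12-1, TRBV2, TRBV14, TRBV17 and TRBV30 have no member chain.

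Many common V segments were rare or unseen among the 229 member chains. TRBV16 took 5.09% of other chains and 0 of 229 member chains, a count that allows a share of up to 1.31% (3 chains), so it was at least 3.89-fold lower. By the same bound TRBV2 was at least 2.27-fold lower and TRBV14 at least 1.34-fold. For TRBV12-1 the pooled bound was 2.43-fold, but its share among other cells ran from 0.627% to 8.38% by library. The IgG libraries of experiment 2 held 61 (WT) and 104 (KO) of the member chains. There TRBV12-1 took 1.24% and 1.16% of other chains, under the 1.31%, so the 2.43-fold bound does not hold for them. All 4 were among the segments called lower. TRBV17 and TRBV30 were also at 0, but they were too rare among other cells for the bound to show a difference.

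TRBV31 took 7.81% of other chains and 1 member chain (0.437%, interval 0.0111% to 2.41%). The share among other cells was 17.9 times as high, with a counting interval of 3.24 to 707. TRBV26 and TRBV15 were also in 1 member chain each, at 5.29% and 4.69% of other chains. TRBV5, TRBV19 and TRBV20 were in 2 chains each, at 5.28%, 4.75% and 4.69%. TRBV3, the second most used label in other cells (10.5%), was in 4 member chains (1.75%), a log2 difference of -2.47 ± 0.53 (edgeR adjusted p = 3.28e-05). These 7 segments and TRBJ1-6 (1 chain, 2.50% of other chains) were called lower. Without KO IgG of experiment 2, edgeR no longer called TRBJ1-6 (adjusted p = 0.304), TRBV12-1 (0.0701), TRBV14 (0.0795), TRBV15 (0.0582) and TRBV19 (0.0701).

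TRBJ use differed less than TRBV use. Of 12 TRBJ segments 2 were called, against 14 of 22 TRBV labels. Among those not called, TRBJ2-3 was at -0.71 ± 0.36 (edgeR adjusted p = 0.0910), TRBJ2-4 at 0.43 ± 0.28 (0.216), TRBJ1-5 at 0.63 ± 0.52 (0.314) and TRBJ1-1 at 0.36 ± 0.30 (0.315). TRBJ2-7, TRBJ2-5 and TRBJ2-4 were the most used beside the invariant alpha, in 14.4%, 13.5% and 13.1% of member chains.

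The beta preference was not seen with the single segments. TRAV11 without TRAJ18 (59 distinct beta chains) against other cells gave 0 calls of 34 (0%) in edgeR, with 2 at an unadjusted p under 0.05. With 4 to 16 chains per library entering this fit, the count moved to 16 with TMM factors and 7 with DESeq2. TRAJ18 without TRAV11 (608 chains) gave 0 calls in edgeR, 7 at an unadjusted p under 0.05, and 1 with cells counted. TRBV29 made up 3.39% of the first and 2.14% of the second, and the joined label 16.9% and 14.6%.

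Tested directly, in comparisons chosen after seeing the data, members differed from both. Against TRAV11 without TRAJ18, edgeR called 7 of 34 segments (20.6%), 2 of them higher, TRBV29 by 2.48 ± 0.81 (adjusted p = 0.0205) and the joined label by 1.46 ± 0.43 (adjusted p = 0.00867). With TMM factors the split was 3 higher and 2 lower, and with DESeq2 3 higher and 0 lower. The count fell to 0 without WT IgG of experiment 2, and to 4 without WT anti-4-1BB or KO IgG of experiment 1 or KO anti-4-1BB of experiment 2. Against TRAJ18 without TRAV11 edgeR called 15 of 34 (44.1%), 3 of them higher, with TRBV29 at 3.17 ± 0.42 and the joined label at 1.66 ± 0.21 (adjusted p = 2.58e-12 and 2.09e-12). With TMM factors the split was 1 higher and 15 lower, and with DESeq2 1 higher and 12 lower, TRBV29 being the higher one in both. Without KO IgG of experiment 2 that count was 6, and without KO anti-4-1BB of experiment 2 it was 9.

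Seen from the beta side, the invariant alpha was most frequent among TRBV29 cells. It was in 45 of 742 cells with a TRA and 1 TRB of this label (6.06%), in 2.30% of those with the joined label and 1.01% of those with TRBV13-3. TRBV13-2 cells had it in 0.704%, TRBV13-1 cells in 0.411% and TRBV1 cells in 0.366%. In the IgG libraries of experiment 2, the invariant alpha was in 14.0% (WT) and 14.5% (KO) of TRBV29 cells, and with anti-4-1BB it was in 1.67% and 0%.

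Beta use of members was also set side by side between treatments. A listed partner was in 173 of 193 members with IgG (89.6%, 84.4% to 93.6%) and in 30 of 38 with anti-4-1BB (78.9%, 62.7% to 90.4%). TRBV29 was in 21.2% (15.7% to 27.7%) and 10.5% (2.94% to 24.8%), and the joined label in 49.7% (42.5% to 57.0%) and 34.2% (19.6% to 51.4%). By library, a listed partner averaged 88.2% ± 6.22 in the IgG libraries and 77.0% ± 11.1 in the anti-4-1BB libraries (SD, n = 4 each; lower in 3 of 4 pairs; two-sided exact permutation p = 0.171). The exact permutation p was 0.114 for TRBV29 and 0.314 for the joined label, each also lower in 3 of 4 pairs, and the adjusted p over these 3 tests was 0.257 or above. These tests, chosen after seeing the data, rest on 7 to 13 members per anti-4-1BB library and do not show that the shares were equal.

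The beta CDR3 gave nearly every member its own receptor. The 231 members with 1 TRB had 229 distinct beta chains, 0 of them in 2 libraries, and no beta CDR3 protein was shared between libraries. The 2 repeated chains are shown because they are the only beta chains that 2 of these 231 members shared, and in each pair the alpha nucleotides were the same as well.

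TRBV3, TRBJ1-2: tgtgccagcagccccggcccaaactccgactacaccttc
TRBV12-2, TRBJ2-7: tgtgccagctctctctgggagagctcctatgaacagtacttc

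The first was in 2 cells of KO with IgG of experiment 2 and the second in 2 cells of WT with anti-4-1BB of experiment 1. Both had V labels outside the partner list. In KO with IgG of experiment 2, the library with most members, 0.0183% of the pairs among 105 members shared a beta chain, and 0.0321% of pairs among its other cells. In WT with anti-4-1BB of experiment 1 it went the other way, with 2.78% of the pairs among 9 members and 0.0118% among other cells. With 1 shared pair in each library, the members were too few to show a difference from other cells, and none was tested. In 11 members the beta chain was also found in a cell of the same library without the invariant alpha, and for 8 of them in a cell with no TRA contig at all.

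The CDR3 beta was longer in members than in other cells. Mean lengths beside the invariant alpha were 14.1, 13.8, 14.3 and 14.3 residues in experiment 1 (WT control, WT treated, KO control, KO treated) and 14.3, 14.0, 14.2 and 14.5 in experiment 2. Other cells had 13.6 to 13.8 residues in every library. Members were higher in 8 of 8 libraries, by 0.440 ± 0.243 residues (SD, n = 8; exact sign-flip permutation p = 0.0078, the smallest possible, adjusted 0.0234 over the 6 within-library comparisons). Counting distinct chains, the difference was 0.422 (exact adjusted p = 0.0469).

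The length was also compared within V labels. Among cells with TRBV13-2 or the joined label, members were longer by 0.785 residues over the 7 libraries that held any (exact sign-flip permutation p = 0.0313, adjusted 0.0625). They were longer in 6 of the 7, and in WT with anti-4-1BB of experiment 2 they had 13.7 residues in 3 members, as did other cells. Over all libraries, joined-label chains had 14.5 ± 1.5 residues in 109 members and 13.8 ± 1.44 in 4511 other cells (SD over cells). TRBV29 chains had 14.2 ± 1.74 and 13.7 ± 1.41. TRBV13-1 and TRBV13-3 went the other way, at 13.2 against 13.7 and 13.4 against 13.7. Of the members, 18.6% had 16 residues, against 6.39% of other cells.

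**Figure D4:**
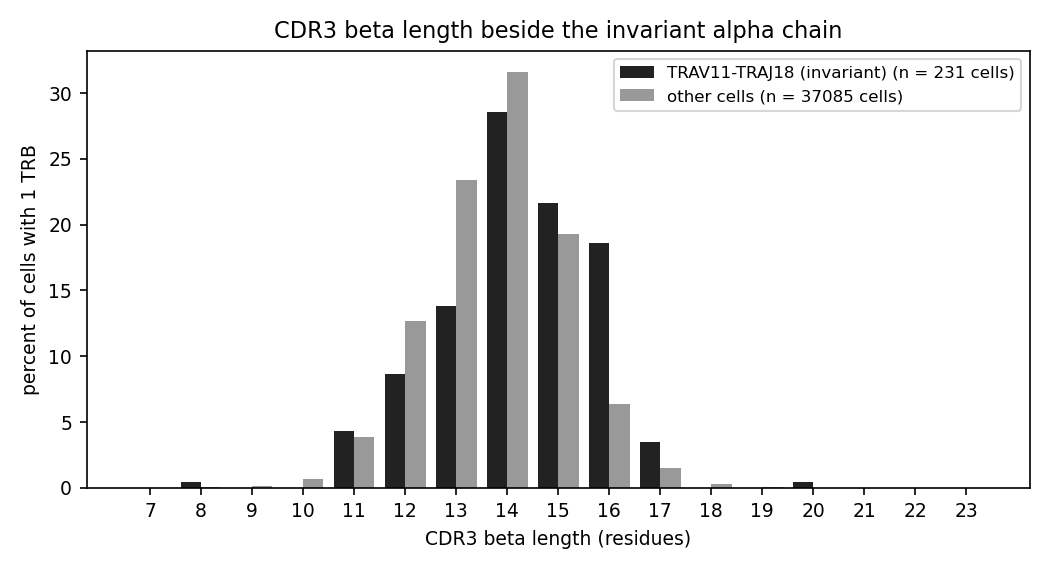
Percent of cells with 1 TRB (y axis) by CDR3 beta length in residues (x axis), for 231 members (dark) and 37085 other cells (light), pooled over the 8 libraries. The most frequent length is 14 residues in both, and members have more chains of 16 residues (18.6% against 6.39%).

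Members held fewer alpha molecules than other cells, while their beta molecules lay on both sides of the other cells'. The median UMI count of the main TRA contig was 5, 6, 4 and 4 in members of experiment 1 and 5, 7.5, 5 and 6 in experiment 2, in the same order of groups. Other cells had 7, 9, 6 and 8, then 7, 10, 8 and 10. Members were lower in 8 of 8 libraries, by 0.62 ± 0.19 on the log2 scale (0.650-fold; SD, n = 8; exact sign-flip permutation p = 0.0078, the smallest possible, adjusted 0.0234). TRAJ18 cells with another V segment had medians of 6 to 11.5, at or above other cells in each library. TRAV11 cells with another J segment had 4, 8, 5.5 and 8 in experiment 1 and 6, 10, 7 and 7 in experiment 2. These were at or below other cells in each library, so the population that shares the V segment leaned the same way as members. That difference was not tested. No gene expression was read here, so whether members held less RNA or their chain was captured less well was not tested.

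For TRB the medians were 11, 15, 13 and 10 UMIs in members of experiment 1 and 14, 18.5, 14 and 17.5 in experiment 2, against 12, 19, 11 and 14, then 12, 16, 12 and 17 in other cells. Members were higher in 5 and lower in 3 libraries. The log2 difference was -0.00 ± 0.29 (SD, n = 8; exact sign-flip permutation p = 0.984).

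**Figure D5:**
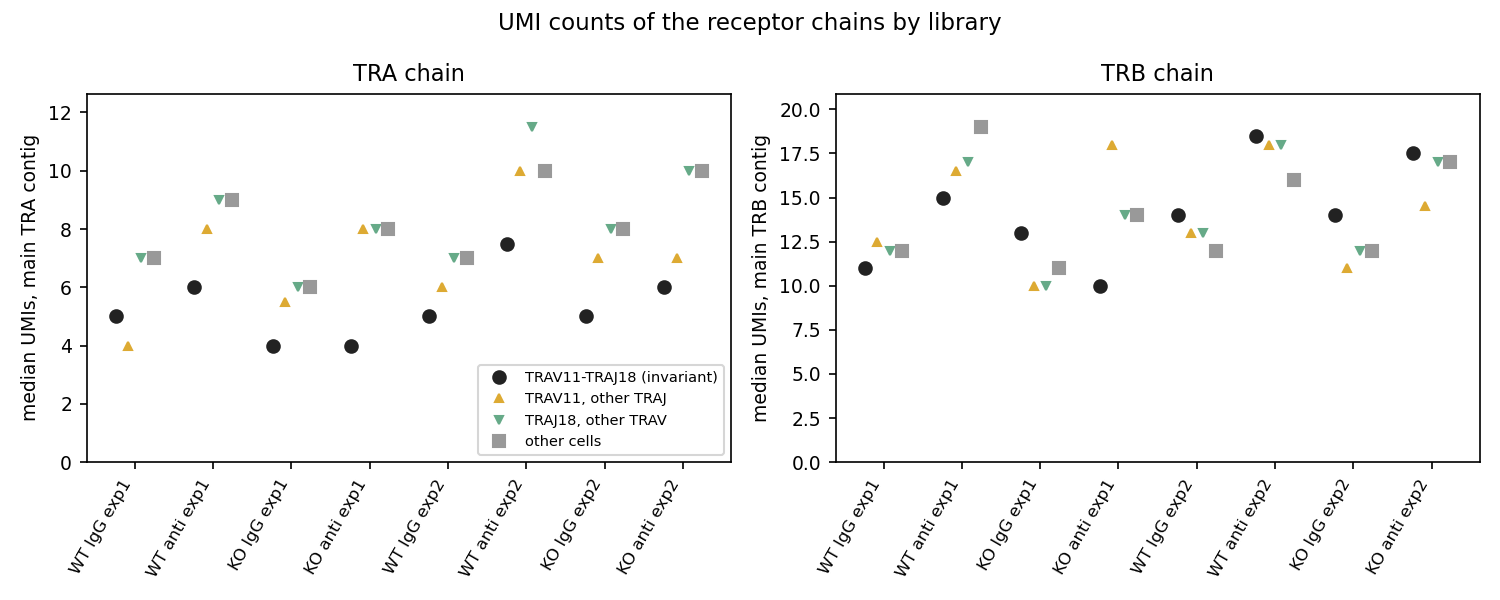
Median UMI count of the cell's main TRA contig (left, y axis) and TRB contig (right, y axis) in the 8 libraries (x axis), for members, TRAV11 cells with another J segment, TRAJ18 cells with another V segment and other cells. Members (black circles) lie below other cells (grey squares) for TRA in each library, and on both sides of them for TRB.

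Most members had a beta chain. A TRB contig was missing in 7 of 275 members (2.55%), against 8.33% of other cells with a TRA. By library the difference was -5.59 ± 5.08 percentage points (SD, n = 8; lower in 6 of 8; exact sign-flip permutation p = 0.0313, adjusted 0.0625). With contigs of at least 3 UMIs it was -6.74 (exact adjusted p = 0.0469).

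In 37 members (13.5%) there were 2 TRB contigs, against 8.84% of other cells. The difference by library was 7.33 ± 9.98 percentage points (SD, n = 8; higher in 6 of 8; exact sign-flip permutation p = 0.0781, adjusted 0.117). None of the 37 had the same CDR3 in both chains. In 15 both V labels were listed partners, in 21 only 1 was, and in 1 neither. The second TRB had a median of 9 UMIs, the first 19, and in 0 of the 37 was the second seen with 1 or 2 UMIs. Of these members 8 also had 2 TRA contigs. Among cells with 1 TRA the difference was 4.75 percentage points. Doublets and cells with 2 beta chains cannot be told apart in these files. A doublet also has more chances to meet the rule. The tests on cells without a TRB contig or with 2 are therefore not independent of it.

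A second alpha was seen in 20 members (7.27%), against 6.32% of other cells. By library the shares were 22.2%, 0%, 5.00% and 0% in experiment 1 and 10.3%, 20.0%, 4.88% and 0% in experiment 2, so they scattered widely. The difference was 2.0 ± 10.0 percentage points (SD, n = 8; higher in 3 of 8). No test is given, since the rule favours cells with 2 alphas. The populations with 1 of the segments were also chosen by any of their alphas. A second alpha was in 30.3% of TRAV11 cells with another J segment and in 11.8% of TRAJ18 cells with another V segment. Members were lower than both, which was not tested. In cells with exactly 1 TRB the difference between members and other cells was -1.06, and without WT IgG of experiment 1 it was -0.187. The 20 second alphas had 20 different V-J pairs from 17 V and 13 J labels, with 7 to 17 residues in the CDR3. None used TRAJ18. Their J segments lay on both sides of TRAJ18 in number, 6 below and 14 above. The second alpha had more UMIs than the invariant chain in 8 cells, fewer in 6 and as many in 6, with a median of 4 UMIs for each.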

How the data were processed

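The members and lists were chosen with earlier results of these data known. For every library the authors deposited annotated contigs, whose V, D and J labels and CDR3 sequences stand beside raw counts of reads and UMIs, per the file headers. The submitters' processing notes name bcl2fastq 2.20.0, Cell Ranger 7.1.0, Seurat and GRCm38. Which segment reference was used is not given in the sources used here. When checked, 0 of 123611 contigs were marked as outside cells, not productive, incomplete or of low confidence.

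Libraries were the replicates. Shares were compared by two-sided exact permutation tests over 70 arrangements, and members with other cells by sign flips over 256 patterns. V-J pairs (1 TRB and 1 or 2 TRA per cell) and TRB segments (library as block) were tested with edgeR 4.0.16 in R 4.3.3 on counts with column totals as library sizes, for features with 10 or more in at least 2 libraries and adjusted p under 0.05. edgeR's prior degrees of freedom came out infinite, so each SE rests on a spread pooled over features. DESeq2 1.42.0, TMM, no filter, a 3 UMI minimum, other cell sets and leaving out each library were alternatives. Scripts were tested on simulated data. Named were TRAV11/TRAJ18, the listed partners, called segments and those with the smallest p, alpha forms in 5 or more members, second alpha V-J pairs in 3 or more (0 found) and beta chains in 3 or more members or 2 libraries (0 found).

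Replicate numbers are the batches in the labels. Deviations of same-numbered libraries from their group means correlated at -0.0781 to 0.371 over 71 V-J pairs. Doublets were not removed. Confidence intervals (95%, Clopper-Pearson) and floors of 3 counts cover counting error only. Python 3.11.15, numpy 2.4.6, pandas 2.3.3, scipy 1.17.1 and matplotlib 3.10.9 were used.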

Additional observations from a re-analysis of the deposited data

Results flagged for a closer look

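The share differences of the 3 populations were compared between experiments and between genotypes or treatments, 12 comparisons in all. In 2 of them both pairs of libraries on one side were higher and both on the other side lower, and these concerned the populations with 1 of the 2 segments. The share of TRAJ18 cells with another V segment, anti-4-1BB minus IgG, was 0.150 percentage points in experiment 1, higher in both genotypes, and -0.569 in experiment 2, lower in both, a gap of 0.718. The share of TRAV11 cells with another J segment, KO minus WT, was 0.211 percentage points in experiment 1 and -0.0613 in experiment 2, a gap of 0.272. Neither difference between experiments was tested. No library stood apart from its group in the 18 groups examined.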

How the results depend on the processing

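The member share was lower with anti-4-1BB under each alternative run. When 1 library was left out, the difference was -0.987 to -0.538 percentage points (exact permutation p = 0.0286 to 0.0857, adjusted 0.171 to 0.514). Under the other alternatives the exact adjusted p was 0.0571 or above, so none passed the threshold. The block test was run with all libraries only (exact p = 0.125). The experiment or library as a block ended no call for TRAV11/TRAJ18. Members against other cells gave 15 called segments with no block, and against TRAV11 without TRAJ18 4 in place of 7. That count was 3 with DESeq2 and with cells counted, and 0 to 7 with 1 library left out. Against TRAJ18 without TRAV11 it was 6 to 15 in place of 15. TRAV11 without TRAJ18 against other cells had 0 calls, 16 with TMM and 7 with DESeq2, and TRAJ18 without TRAV11 had 1 with cells counted. The V-J count for treatment went from 1 to 0 with DESeq2, cells counted and the abundance trend, and was 0 to 1 with 1 library left out. TRAV11 without TRAJ18, anti-4-1BB minus IgG, turned to -0.000396 with 3 UMIs and ran from -0.0268 to 0.0725 with 1 library left out. The KO minus WT member share ran from -0.101 to 0.498. The TRB UMI difference turned to 0.0105 with the canonical form, 4.29e-05 with 3 UMIs and 0.113 with the mean of log2 values, and ran from -0.0366 to 0.0672. The second alpha difference turned to -1.06 in cells with 1 TRB and ran from -0.187 to 3.73. The lower share without TRB passed the threshold with 3 UMIs (-6.74), and the CDR3 beta difference within TRBV13-2 or the joined label (0.785) did not. TRBV13-2 turned to 0.0724 with cells counted, 1.81 with the joined label added and 0.54 without KO IgG of experiment 2 (-1.69 to 0.54 with 1 library left out), and TRBV13-3 to -0.28 with TMM. The causes were not tested. The log2 scale, cells with 1 TRA, 1 TRB or both, the abundance trend and the direct tests against the TRAV11 and TRAJ18 populations were chosen after seeing the data. The 38 members with 1 TRB under anti-4-1BB limit what can be seen there.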

Other observations

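The alpha chain of mucosal-associated invariant T cells, TRAV1 joined to TRAJ33, was found in 7 cells of the 46038 with a TRA contig. They came from 4 libraries, 2 in WT with anti-4-1BB and 1 in KO with IgG of experiment 1, and 3 in WT with anti-4-1BB and 1 in KO with IgG of experiment 2.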
